A study of Homo sapiens with 18 samples.

Results

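The intrinsic apoptosis genes described here were 40 genes of the BCL2 family, the caspases and their partners, chosen by gene symbol, and they were measured by 61 of the 21111 probes on the panel. The panel held 19289 gene symbols in all. Of the members, 27 had 1 probe and 13 had several, with up to 6 probes for BCL2L13. By role they were anti-apoptotic BCL2 proteins, the pore-forming effectors, BH3-only proteins, divergent BCL2 relatives and mitophagy receptors, apoptotic and inflammatory caspases, apoptosome and mitochondrial release factors, inhibitor of apoptosis proteins (IAPs), DNA fragmentation factors and BAG cochaperones. In probes, 32 belonged to pro-death genes, 13 to pro-survival genes and 16 to genes on neither side.

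In the intrinsic pathway, BH3-only proteins sense damage or loss of survival signals and bind the anti-apoptotic BCL2 proteins or the effectors BAX and BAK1. The effectors then open the outer mitochondrial membrane, cytochrome c (CYCS) leaves the mitochondrion, and APAF1 assembles it with caspase 9 into the apoptosome. IAPs hold the caspases in check, and DIABLO and HTRA2 relieve that check. Many steps of the pathway are set by protein binding and cleavage, which an RNA measurement does not show.

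The samples were the triple-negative breast cancer (TNBC) cell lines BT549 and Hs578T, both mesenchymal-like, and SUM149PT, which is basal-like. Each cell line was transfected with 50 nM of a siRNA pool against ASAP1 (siASAP1), an Arf GTPase-activating protein, or with the control siRNA (siCtrl), which the study's methods describe as a pool of kinase siRNAs. All wells were lysed 72 h after transfection, in biological triplicate, for TempO-Seq, in which pairs of detector oligos are ligated on an mRNA and sequenced, so each probe reads 1 short stretch of 1 transcript. Each group is therefore 1 cell line under 1 siRNA pool, and effects of ASAP1 loss cannot be told apart from other effects of that pool. Fewer cells and less RNA per cell cannot be told apart in such bulk lysates either.

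The 18 libraries held between 4.63 and 12.5 M reads (median 6.63 M). ASAP1 was lower after siASAP1 by the fitted difference in each cell line, with a Log2 fold change (Log2 FC) of -1.16 in SUM149PT, -0.98 in Hs578T and -0.75 in BT549. Over the 18 libraries the Log2 FC was -0.96 ± 0.31 SE (unadjusted p = 0.0063, limma). It did not pass after adjustment over all probes (adjusted p = 0.13, limma). The study also reported lower ASAP1 mRNA after siASAP1 in these cell lines by RT-qPCR. SUM149PT siCtrl 2 went against its label: its ASAP1 normalized count was 189, against 1087 and 1314 in the other SUM149PT siCtrl libraries and 184 to 468 after siASAP1. The first axis of variation between replicates of a group held 42.5% of the within-group variance over 10475 probes, and the library labelled SUM149PT siCtrl 2 had the highest score on it (1.35, against 0.83 for BT549 siASAP1 1, the next). The sign of the axis was set so that this library scored positive. SUM149PT siASAP1 2 had the lowest score (-0.90), near SUM149PT siCtrl 1 and 3 (-0.59 and -0.75). SUM149PT siASAP1 1 and 3 scored 0.41 and 0.49. Without the library labelled SUM149PT siCtrl 2, the ASAP1 Log2 FC was -2.04 ± 0.46 SE in SUM149PT (adjusted p = 0.064, limma) and -1.20 ± 0.25 SE over the remaining libraries (adjusted p = 0.019, limma). Member calls that changed without this library are given both ways, for some contrasts by count only. Epithelial markers summed to between 21307 and 40063 normalized counts in SUM149PT and to at most 167 in BT549 and Hs578T, steroid and HER2 receptor transcripts to at most 280 in any library, and blood and endothelial markers to at most 103. Most of the epithelial sum in SUM149PT was EPCAM (31521 of 34139 in siCtrl 1). In its siCtrl libraries KRT14 was at 0, KRT5 at 0 to 42.9 and KRT17 at 647 to 1941. Mesenchymal markers summed to 5712 to 11847 in SUM149PT and to at least 57093 in BT549 and Hs578T.

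The promoters of BAG1 and BMF, the member called over all cell lines and the member called in both Hs578T and SUM149PT after siASAP1, are shown for context. They are the 250 bases before the start of each gene in RefSeq on GRCh38.p14, on the minus strand, and the capitals mark the motif matches found. BAG1 lies at chr9:33264709-33264958 and BMF at chr15:40108880-40109129.
BAG1: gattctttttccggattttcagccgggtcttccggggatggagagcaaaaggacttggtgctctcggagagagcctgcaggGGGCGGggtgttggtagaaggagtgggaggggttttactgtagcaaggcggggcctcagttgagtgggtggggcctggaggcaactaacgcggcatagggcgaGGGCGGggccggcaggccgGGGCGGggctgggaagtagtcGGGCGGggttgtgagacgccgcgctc
BMF: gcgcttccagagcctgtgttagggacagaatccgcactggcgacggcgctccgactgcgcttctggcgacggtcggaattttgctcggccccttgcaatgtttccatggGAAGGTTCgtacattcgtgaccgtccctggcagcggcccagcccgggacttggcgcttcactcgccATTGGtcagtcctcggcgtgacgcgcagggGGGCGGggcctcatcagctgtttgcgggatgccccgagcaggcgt
The motifs searched on both strands were the TATA box (TATAAA), the CCAAT box (CCAAT), the GC box (GGGCGG), the E-box (CACGTG), the cAMP response element (TGACGTCA), the AP-1 site (TGANTCA) and the heat shock element (GAANNTTC), and none of the matches in the printed promoters overlapped another. The BAG1 promoter held 4 GC boxes, 18 CpG and 65.2% GC, and the BMF promoter held 1 GC box, 1 CCAAT box and 1 heat shock element, with 26 CpG and 65.2% GC. Over all 35116 promoters of this length, 42.6% held a GC box, 32% a CCAAT box and 5.78% a heat shock element, with a median of 58% GC. A promoter was listed for 32 of the 40 members, and BMF had a second, more internal start, which is not printed. In GENCODE release 29 (GRCh38), BAG1 is a protein-coding gene at chr9:33247820-33264720 and BMF at chr15:40087890-40108892, both on the minus strand.

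The siCtrl libraries gave the level of each member without ASAP1 silencing. Values are normalized counts, the reads of a probe divided by the size factor of its library. A probe was tested where its mean over the libraries compared was at least 10. Levels are compared between cell lines for 1 probe and not between probes, since probes differ in efficiency. Between siCtrl libraries, a probe was called at an adjusted p under 0.05 by limma and an absolute log2 difference over 1. By this rule 4 of 37 member probes (10.8%) were called between Hs578T and BT549, against 13.8% of all probes. Between SUM149PT and BT549 4 of 37 were called, against 18.2% of all probes, and between SUM149PT and Hs578T 6 of 37 (16.2%), against 20.2%. These shares were near those of all probes and say nothing particular of the members. Without the library labelled SUM149PT siCtrl 2, the fit over the siCtrl libraries called 8, 9 and 7 members in these contrasts, while the calls over all probes went from 1419, 1862 and 2070 to 2152, 3351 and 3103. Newly called were AIFM1, CYCS, BCL2L11_26886 and BAG1 between Hs578T and BT549. Between SUM149PT and BT549 they were BCAP31, CYCS, MCL1_20177, BCL2L11_26447 and BCL2L2.

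CASP1 had the largest log2 difference among the member probes tested between siCtrl libraries. CASP1, which matures interleukin-1 beta and opens gasdermin D in pyroptosis, was read by CASP1_26966 at 7.49, 11.9 and 9.12 normalized counts in the BT549 siCtrl libraries. The same probe read 278, 498 and 439 in Hs578T and 139, 186 and 126 in SUM149PT. The 3 cell lines did not overlap, and Hs578T was the highest. The log2 difference was 5.25 ± 0.44 (SE) between Hs578T and BT549 (adjusted p = 5.1e-05, limma) and 3.85 ± 0.44 between SUM149PT and BT549 (adjusted p = 1.7e-04, limma). CASP1_15797 had the same order, at 0 in all BT549 siCtrl libraries, 41.3, 79.1 and 86.7 in Hs578T and 5.72, 17.3 and 0 in SUM149PT, and the third CASP1 probe had no read in any library. The other inflammatory caspase, CASP4, the cytosolic sensor of bacterial lipopolysaccharide, was at 1114, 253 and 305 in BT549, 1515, 1930 and 1222 in Hs578T and 752, 559 and 715 in SUM149PT. Its difference between Hs578T and BT549 was 1.79 (adjusted p = 0.048, limma), and BT549 siCtrl 1 lay close to the Hs578T libraries. That call was lost without any 1 of 7 siCtrl libraries, those of Hs578T among them, at 1.39 to 1.95.

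Of the apoptosome members and apoptotic caspases, APAF1 and CASP6 were called. APAF1, the scaffold of the apoptosome, was at 2225, 2277 and 2583 normalized counts in BT549, 1424, 1768 and 1694 in Hs578T and 1044, 667 and 1045 in SUM149PT. These levels did not overlap between the cell lines, and the log2 difference between SUM149PT and BT549 was -1.39 ± 0.29 SE (adjusted p = 0.0080, limma). CASP6, an executioner caspase that cleaves nuclear lamins, was at 684, 567 and 526 in SUM149PT, above 316, 226 and 264 in BT549 and 300, 233 and 316 in Hs578T. Its log2 difference was 1.14 to BT549 and 1.07 to Hs578T, with adjusted p = 0.030 and 0.038 by limma. Both calls were lost without BT549 siCtrl 2, BT549 siCtrl 3, Hs578T siCtrl 1, SUM149PT siCtrl 1 or SUM149PT siCtrl 3, and that to Hs578T also without Hs578T siCtrl 2, at 0.93 to 1.22. The call to BT549 was also lost under scaling by library totals or by the upper quartile. In all, 7 alternatives lost the call to BT549 and 8 that to Hs578T.

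BNIP3L, a mitophagy receptor in the outer mitochondrial membrane, was low in SUM149PT alone. Its siCtrl values were 209, 130 and 253 in SUM149PT, against 1445, 1465 and 1082 in BT549 and 1079, 932 and 1267 in Hs578T. The log2 difference was -2.79 ± 0.34 SE to BT549 and -2.51 ± 0.34 SE to Hs578T (adjusted p = 2.6e-04 and 4.7e-04, limma). BT549 and Hs578T overlapped. BCL2L11, which encodes the BH3-only protein BIM, was read by BCL2L11_26886 at 173, 348 and 182 in SUM149PT and 69.9, 313 and 256 in BT549, which overlapped, and at 20.3, 32.6 and 87.7 in Hs578T, below SUM149PT (log2 difference 2.49, adjusted p = 0.032, limma). That call was lost without any SUM149PT siCtrl library, without Hs578T siCtrl 1 or 2, and without BT549 siCtrl 3, at 2.03 to 2.66.

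**Figure D1:**
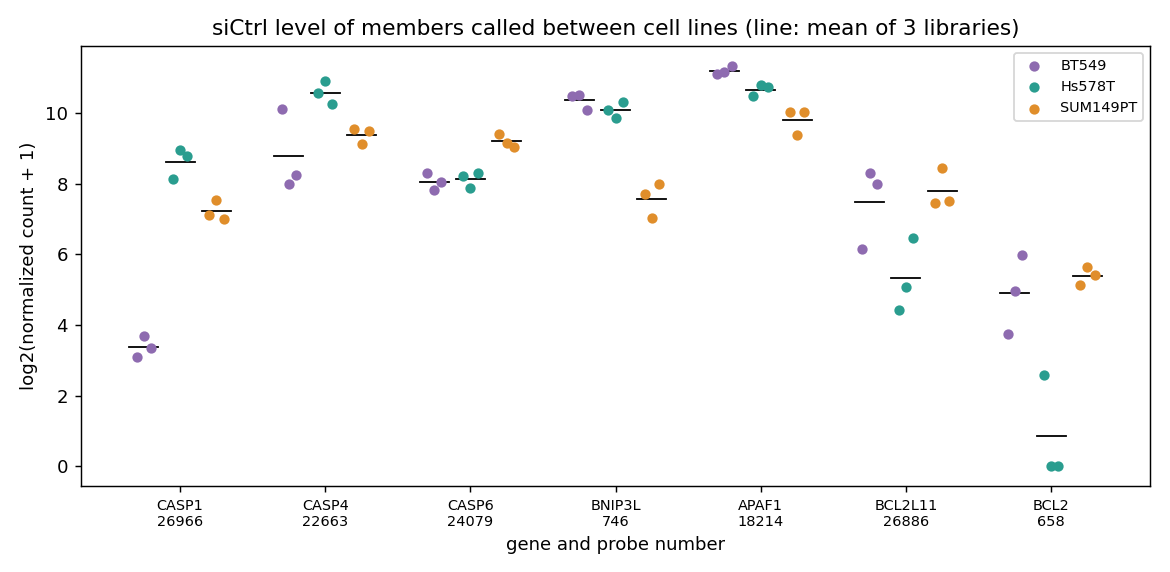
Points are the 3 siCtrl libraries of each cell line, on the log2(normalized count + 1) scale, for members called in at least 1 contrast between cell lines, and short lines are means. CASP1_26966 is at 7.49 to 11.9 normalized counts in BT549 and 278 to 498 in Hs578T, and BNIP3L is at 130 to 253 in SUM149PT alone.

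Among the anti-apoptotic members, BCL2 was named after its values were seen, since its level was below the limit for naming. It was at 12.5, 30.2 and 62.4 in BT549 and 34.3, 49.2 and 41.6 in SUM149PT, but at 5.06, 0 and 0 in Hs578T siCtrl and at 0 in all Hs578T siASAP1 libraries. Its fitted log2 difference of Hs578T to BT549 was -4.03 (adjusted p = 0.012, limma), a value that depends on the pseudocount of 1 and lost its call without BT549 siCtrl 3 or Hs578T siCtrl 2 (-3.49 and -3.60). That of SUM149PT to Hs578T was 4.53 (adjusted p = 0.0044, limma). It kept its call in all 17 alternatives, though its size also depends on the pseudocount. MCL1 (3621 to 10803 for MCL1_20177) and BCL2L1 (1427 to 4690 for BCL2L1_21647), which encodes BCL-xL, were read in every siCtrl library and were called between no pair of cell lines when all siCtrl libraries were used. The MCL1 value of 10803 was that of SUM149PT siCtrl 2. Without that library, MCL1_20177 was called between SUM149PT (3621 and 4107) and BT549 (8831 to 9809), lower in SUM149PT.

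Some members had little or no signal. The probes BCL2L1_660, BCL2A1_28301, BNIP3_743 and CASP1_977 had no read in the 125.1 M reads of all libraries, which allows up to 0.024 reads per M reads by counting error alone. Of the 40 members, 31 had at least 1 of 37 probes tested over the 18 libraries. BCL2A1, BAK1, BIK, PMAIP1, HRK, BNIP3, CASP10, ENDOG and XIAP did not, and BAK1 and XIAP were tested in single cell lines only. PMAIP1 and BBC3, which encode NOXA and PUMA, are p53 targets. PMAIP1 reached at most 7.11 normalized counts, so a change in it was not detectable at this depth. The tested members are those with enough signal and do not stand for all 40.

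The effect of siASAP1 that the cell lines shared was fitted across all 18 libraries, with a term for each cell line. BAG1 was the only member probe with an adjusted p under 0.05, 1 of 37 (2.70%), against 1.74% of all probes, and 4 of 37 had an unadjusted p under 0.05, against 15.8% of all probes. The share of members called was near that of all probes. By side, 10 of 18 pro-death probes had a positive Log2 FC (median 0.30), as did 5 of 8 pro-survival probes (median 0.14) and 7 of 11 on neither side (median 0.06). The median over all probes was 0.02. Leaving out 1 library gave a pro-death median between 0.10 (without SUM149PT siASAP1 1) and 0.32, and a pro-survival median between 0.05 (without Hs578T siCtrl 2) and 0.37 (without SUM149PT siCtrl 3). With a minimum mean of 50 normalized counts, the pro-death median was -0.18, so its sign rests on low probes. By cell line, the pro-death median was 0.37 in SUM149PT, 0.30 in Hs578T and -0.24 in BT549, and the pro-survival median was 0.09, 0.27 and 0.54.

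**Figure D2:**
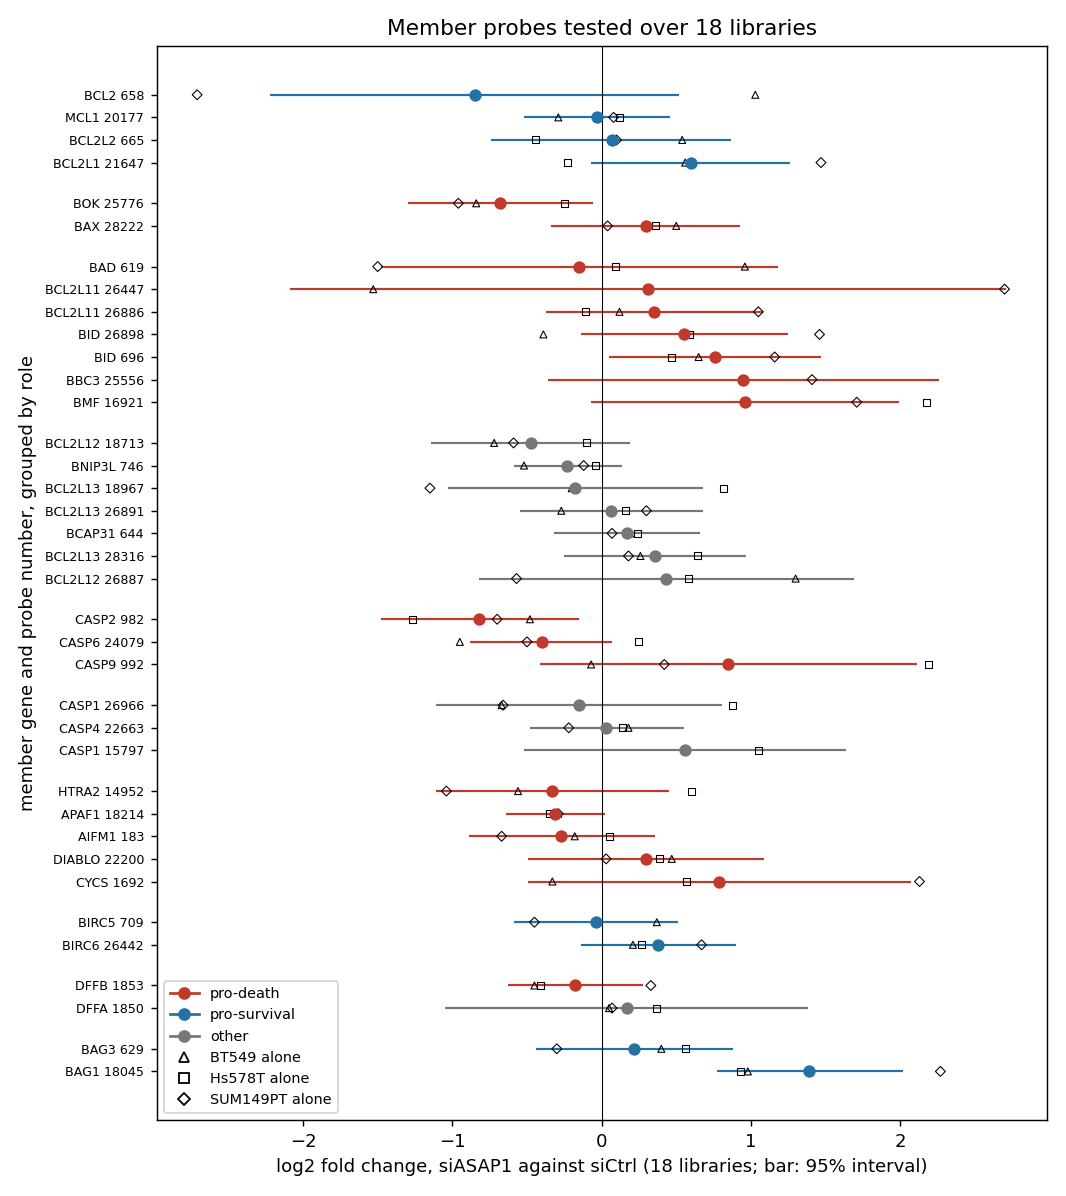
Filled points are Log2 FC of siASAP1 against siCtrl over 18 libraries with 95% intervals for the 37 member probes tested, grouped by role and coloured by side, and open symbols are single cell lines. BAG1, at 1.39, has the interval farthest above 0 (0.77 to 2.02).

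BAG1 encodes a cochaperone of HSP70 that binds BCL2 and is counted as pro-survival. In SUM149PT, BAG1 was at 130, 251 and 78.3 normalized counts after siCtrl and 794, 700 and 526 after siASAP1. In Hs578T, BAG1 was at 35.4, 44.9 and 33.5 after siCtrl and 72.5, 72.3 and 73.6 after siASAP1. The groups did not overlap in these cell lines. In BT549, BAG1 was at 64.9, 219 and 193 after siCtrl and 216, 364 and 271 after siASAP1, and 1 siASAP1 library lay below the highest siCtrl library. The Log2 FC over the 18 libraries was 1.39 ± 0.30 SE (95% interval 0.77 to 2.02, adjusted p = 0.020, limma), with 0.98 ± 0.52 in BT549, 0.93 ± 0.39 in Hs578T and 2.27 ± 0.52 in SUM149PT. With a term for the replicate number within each cell line, the shared difference was not called (adjusted p = 0.062, limma). Without the library labelled SUM149PT siCtrl 2 the shared Log2 FC was 1.46 (adjusted p = 0.020, limma). In SUM149PT alone it was then 2.70 ± 0.42 SE (adjusted p = 0.049, limma). Across the 18 libraries, BAG1 correlated at r = 0.43 with the score on the axis of variation between replicates, a description only. The other BAG member, BAG3, a cochaperone of selective autophagy, had a Log2 FC of 0.22 (95% interval -0.44 to 0.88) and did not pass.

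Within each cell line, a member was called at an absolute Log2 FC over 1 together with an unadjusted p under 0.05. After adjustment, 0 member probes had an adjusted p under 0.05 by limma in any cell line, as did 0 of all probes, while 0 in BT549, 5 in Hs578T and 3 in SUM149PT had an unadjusted p under 0.05, as did 7.80%, 5.28% and 10.2% of all probes. Without the library labelled SUM149PT siCtrl 2, 1 member (BAG1) and 107 of all 9953 probes tested in SUM149PT had an adjusted p under 0.05 by limma. For BAG1 in SUM149PT the adjusted p ranged from 0.018, in a single fit of all 18 libraries, to 0.98 over the alternatives. In BT549, 0 of 37 member probes were called by limma, against 6.97% of all probes, and voom weights also gave 0. In Hs578T, 3 of 36 (8.33%) were called, against 2.78%, and in SUM149PT 3 of 39 (7.69%), against 9.56%. Comparisons of 3 libraries with 3 cannot reach an exact two-sided p below 0.1. The siCtrl and siASAP1 groups did not overlap for 6 of 37 member probes in BT549, against 13.9% of all probes. They did not overlap for 8 of 36 in Hs578T, against 12.1%, nor for 4 of 39 in SUM149PT, against 17.3%. Of the 8 in Hs578T, 7 were higher after siASAP1, among them CASP1_15797 and CASP1_26966, which read the same gene. The directions over all probes were not counted. No member had an adjusted p under 0.05 for a difference in the effect between cell lines, by limma or with voom weights. By limma, 0.00955% of all probes had one. Of 37 member probes, 1 had an unadjusted p under 0.05 for this difference, BMF, against 6.22% of all probes.

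BMF is a BH3-only protein that is held on the cytoskeleton in healthy cells. In Hs578T, BMF_16921 was at 12.7, 35.1 and 23.6 normalized counts after siCtrl and 175, 68.2 and 91.7 after siASAP1. In SUM149PT, it was at 14.3, 13.7 and 19.2 after siCtrl and 60.9, 33.3 and 73.6 after siASAP1. All siASAP1 libraries of these cell lines lay above their siCtrl libraries. In BT549, it was at 18.7, 6.29 and 5.61 and then at 9.78, 1.89 and 2.74, which was too low to be tested. The Log2 FC was 2.18 ± 0.54 SE in Hs578T (adjusted p = 0.77, limma) and 1.71 ± 0.67 SE in SUM149PT (adjusted p = 0.46, limma), so the calls rest on unadjusted p-values. Over the 18 libraries, BMF_16921 had a Log2 FC of 0.96 (95% interval -0.07 to 1.99, adjusted p = 0.35, limma) and did not pass. The interaction of cell line and siASAP1 for BMF had an adjusted p of 0.50 by limma. In SUM149PT the call was lost without siCtrl 1, siASAP1 1 or siASAP1 3, and without the library labelled siCtrl 2, with Log2 FC of 1.48 to 1.65. The second BMF probe reached at most 13.9 normalized counts and was not tested.

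BID links death receptors to the mitochondrion once caspase 8 has cleaved it, and its 2 probes did not move together between replicates. In SUM149PT, BID_26898 was at 74.4, 220 and 123 normalized counts after siCtrl and 521, 187 and 434 after siASAP1, with overlap. Its Log2 FC was 1.46 ± 0.60 SE (adjusted p = 0.47, limma) and was called by the unadjusted limits, a call lost without siCtrl 1, siCtrl 3, siASAP1 1 or siASAP1 3, with Log2 FC of 1.08 to 1.44. Without the library labelled siCtrl 2 it was 1.85. BID_696 was at 123, 21.9 and 120 after siCtrl and 92.6, 233 and 173 after siASAP1 there, also with overlap. In BT549, BID_26898 had a Log2 FC of -0.39 and BID_696 of 0.65. Over the 18 libraries, BID_696 had a Log2 FC of 0.76 (95% interval 0.05 to 1.47, adjusted p = 0.28, limma) and BID_26898 of 0.55 (95% interval -0.14 to 1.25). They were 0.50 and 0.60 without the library labelled SUM149PT siCtrl 2 (adjusted p = 0.37 and 0.42, limma). Across the 18 libraries, BID_26898 correlated at r = 0.89 with the score on the replicate axis and BID_696 at r = -0.84, as a description in which the same libraries and depths enter. Summing both probes of the gene kept BID among the 3 members called in SUM149PT.

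**Figure D3:**
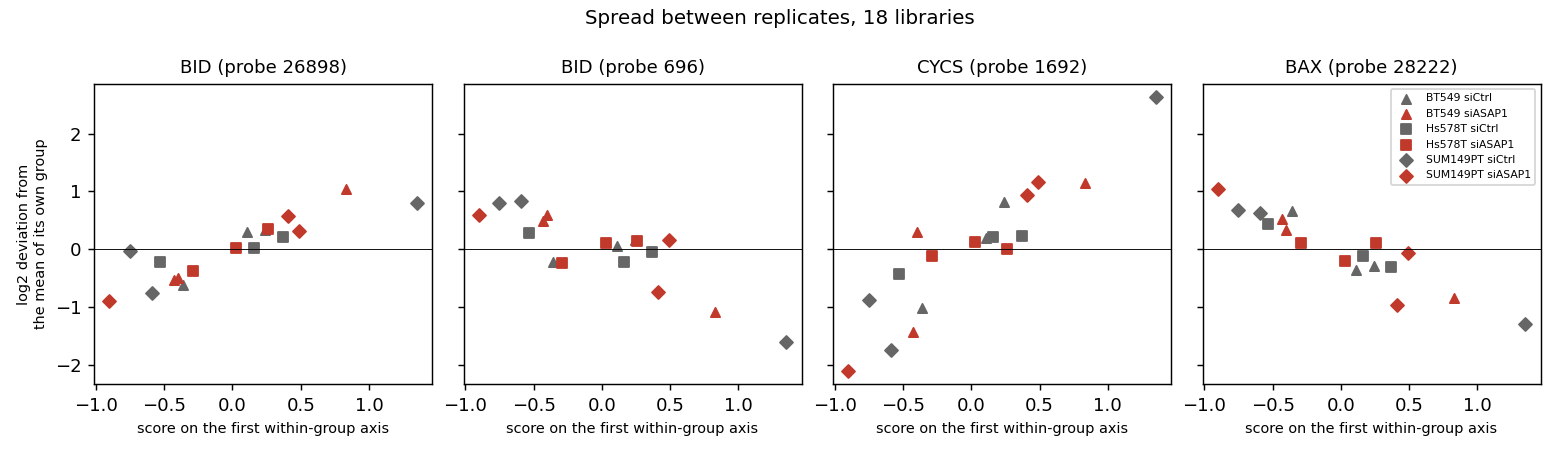
Each point is 1 of 18 libraries, with its score on the first axis of within-group variation (no unit) against the log2 deviation of the probe from the mean of its own group. BID_26898 and CYCS are higher where the score is high (r = 0.89 and 0.91), and BID_696 and BAX are lower there (r = -0.84 and -0.93).

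Other members lay along the same axis, in both directions. The probes BCL2L11_26447 (r = 0.96), CYCS (0.91), BCL2L1_21647 (0.88) and MCL1_20177 (0.80) were higher where the score was high, and BAX (-0.93), BCAP31 (-0.89), BAG3 (-0.88) and BNIP3L (-0.85) were lower. Pro-death and pro-survival genes stood on both ends. CYCS was at 5.72, 138 and 11.2 in the SUM149PT siCtrl libraries and 188, 21.8 and 219 after siASAP1, so 1 library in each group stood apart. BCL2L1_21647 was at 1427, 4690 and 1664 and then at 10819, 2602 and 8334. The part of this axis in the siASAP1 differences was not tested. Without the library labelled SUM149PT siCtrl 2, 7 of 38 member probes were called in SUM149PT, against 23.4% of all probes. They were CYCS, BCL2L11_26886, BCL2L11_26447, BCL2L1_21647, BID_26898 and BAG1, which were higher, and BOK, which was lower. In BT549, 5 member probes were called without siASAP1 1, BCL2L12_26887, BID_696, CASP6, BBC3_25556 and BCL2L11_26447, where the full set gave 0. Over all probes, the calls in BT549 went from 674 of 9666 to 2169 of 9658.

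The remaining BH3-only probes tested, BBC3_25556, BCL2L11_26886, BCL2L11_26447 and BAD, had Log2 FC of 0.95, 0.35, 0.31 and -0.15 over the 18 libraries, with 95% intervals that held 0. Of all 7 BH3-only probes tested, 6 had a positive Log2 FC and 0 passed the adjusted limit by limma. These 7 probes read only 5 genes, so they are not separate counts, and the median over all probes was 0.02. BBC3_25556 was at 44.9, 36.5 and 28.8 normalized counts in BT549 siCtrl and 39.1, 66.1 and 141 after siASAP1, which overlapped. Of the effectors, BAX had a Log2 FC of 0.30 and BOK of -0.68 (adjusted p = 0.26, limma).

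Among caspases, CASP2, an initiator caspase activated on the PIDDosome, was at 92, 61.2 and 72.9 normalized counts in Hs578T siCtrl and 26.1, 37 and 28.8 after siASAP1, with no overlap. Its Log2 FC was -1.27 ± 0.42 SE in Hs578T (adjusted p = 0.91, limma), -0.48 in BT549 and -0.70 in SUM149PT, and -0.82 over the 18 libraries (adjusted p = 0.20, limma). The call in Hs578T was lost without siCtrl 1 (-1.12). In the other cell lines the groups overlapped, with 81.1, 26.4 and 51.2 after siCtrl and 42.7, 27.4 and 33.8 after siASAP1 in BT549. CASP1_15797 was at 142, 161 and 114 in Hs578T after siASAP1, all above the 41.3 to 86.7 of siCtrl, and its Log2 FC was 1.05 ± 0.40 SE (adjusted p = 0.92, limma). That call was lost without siCtrl 1, siASAP1 1 or siASAP1 2, at 0.72 to 1.03. CASP1_26966 was at 778, 830 and 588 there, against 278 to 498, with a Log2 FC of 0.88, and was not called. In SUM149PT it was at 93.9, 133 and 65.7 after siASAP1, against 126 to 186 after siCtrl, with a Log2 FC of -0.66. CASP6 had a Log2 FC of -0.95 in BT549 and -0.50 in SUM149PT, where the groups did not overlap, and of 0.25 in Hs578T, where they did. CASP9 had a Log2 FC of 2.19 in Hs578T that rests on a siCtrl library at 0 and was not called.

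**Figure D4:**
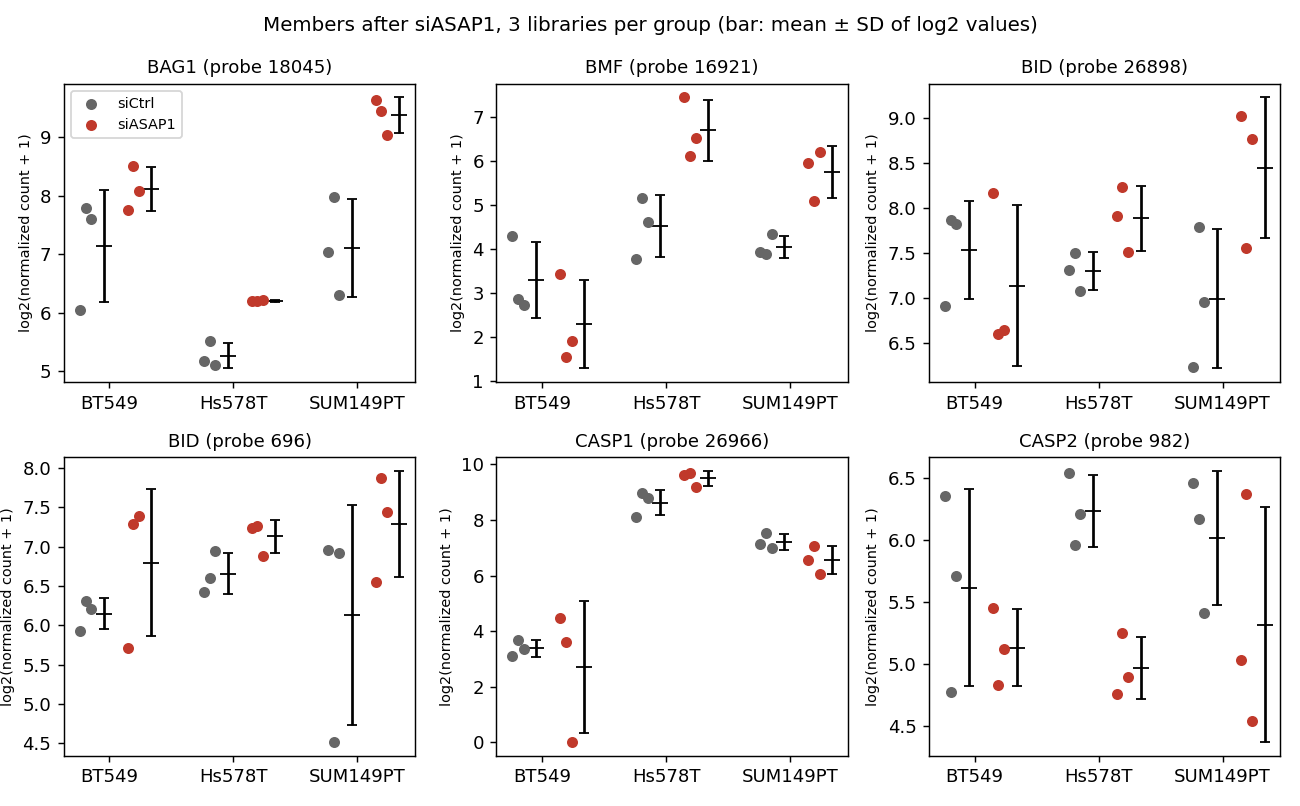
Points are single libraries on the log2(normalized count + 1) scale, grey for siCtrl and red for siASAP1, and bars are mean ± SD of 3 libraries. BAG1 after siASAP1 lies above siCtrl in Hs578T and SUM149PT without overlap, CASP1_26966 is at 278 to 498 in Hs578T siCtrl and 588 to 830 after siASAP1, and CASP2 is at 26.1 to 37 after siASAP1 in Hs578T.

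The remaining roles gave no call. The anti-apoptotic probes BCL2L1_21647, BCL2L2, MCL1_20177 and BCL2 had Log2 FC of 0.60, 0.07, -0.03 and -0.85 over the 18 libraries. Of these intervals, that of MCL1 was narrow (-0.52 to 0.46) and that of BCL2 wide (-2.22 to 0.52). The BCL2 Log2 FC was 1.03 in BT549, with overlap, and -2.71 ± 1.25 SE in SUM149PT (adjusted p = 0.51, limma). In SUM149PT, BCL2 was at 34.3, 49.2 and 41.6 after siCtrl and 22.5, 0 and 10.5 after siASAP1, without overlap. It was called lower there only in a single fit of all 18 libraries and without siASAP1 1. The adjusted interaction p of BCL2 was 0.83 by limma. The IAPs BIRC5 (survivin) and BIRC6 had Log2 FC of -0.04 and 0.38. XIAP, a low probe, had 1.02 in BT549, without overlap, and 1.69 in Hs578T, with overlap (adjusted p = 0.74 and 0.92, limma). In SUM149PT, XIAP was at 0, 7.29 and 0 after siCtrl and 23.8, 12.8 and 11.8 after siASAP1. That was too low to be tested, and it was called there by the unadjusted limits only with no filter. The release factors APAF1, AIFM1, HTRA2, DIABLO and CYCS ranged from -0.33 to 0.79, and APAF1 (-0.31, 95% interval -0.64 to 0.02) was close in all cell lines at -0.29, -0.35 and -0.29. The DNA fragmentation factors DFFA and DFFB had 0.17 and -0.18. The 7 divergent BCL2 and mitophagy probes tested, of BCL2L12, BCL2L13, BNIP3L and BCAP31, ranged from -0.47 to 0.43.

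The other genes of cell death were counted in lists. Of 15 probes of executioner caspases and death receptor genes tested over the 18 libraries, 2 were called and both were higher, BIRC3 (Log2 FC 1.92, adjusted p = 0.011, limma), an IAP of the TNF receptor complex, and TNFRSF10A (1.19, adjusted p = 0.048, limma), a TRAIL receptor. The median of this list was 0.54 and 13 of the 15 were positive. Over all probes tested, 1.74% were called and the median was 0.02. BIRC3 was at 327, 304 and 319 normalized counts in BT549 after siCtrl and 3474, 1706 and 1660 after siASAP1. In SUM149PT it was at 40, 136 and 79.9 and then at 527, 226 and 895. In Hs578T its groups overlapped, at 208, 363 and 162 after siCtrl and 218, 384 and 320 after siASAP1. No probe of this list was called in Hs578T. Of 11 probes of the p53 axis, 0 were called by limma, with a median of 0.36. Of 23 probes of mitochondrial and endoplasmic reticulum genes, 2 were called. VDAC1, a channel of the outer mitochondrial membrane, was lower (Log2 FC -0.81, adjusted p = 0.0063, limma), and AIFM2, which reduces coenzyme Q, was higher (1.39, adjusted p = 0.0062, limma). Of 13 proliferation probes, 0 were called over the 18 libraries. In SUM149PT all 13 had a negative Log2 FC, with a median of -0.95. Their summed level there was 6191 to 9319 normalized counts after siCtrl, with 9319 in the library labelled siCtrl 2, and 3219 to 3477 after siASAP1. It was 4564 to 5886 and then 3826 to 4199 in Hs578T. In BT549 it was higher after siASAP1, at 6616 to 6988 against 5279 to 6017. The lower level in SUM149PT stood beside the SUM149PT values of BAG1, BMF and BID, and its part in them was not tested.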

How the data were processed

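The 18 TempO-Seq libraries of BT549, Hs578T and SUM149PT were grouped by the submitters' labels. The authors divided probe counts by size factors from the DESeq2 function estimateSizeFactors and deposited log2 values of the normalized count plus 1. The submitters' processing notes also list bcl2fastq and Bowtie, and the versions and the genome build are not given in the sources used here. Undoing the log2 scale and the size factor gave whole reads (within 0.001) for 100% of values. Because the deposited values are log2 values, limma 3.58.1 (lmFit, eBayes with trend, R 4.3.3) was used in place of the study's Wald test on counts. The 6 libraries of each cell line were fitted alone, and the 18 libraries were fitted with a term for each cell line, with its interaction with siASAP1 as a separate model. The siCtrl libraries of the 3 cell lines were fitted together. A probe entered a fit where its mean normalized count was at least 10. P-values were adjusted over all tested probes by the Benjamini-Hochberg method. Fold changes are differences of mean log2(normalized count + 1), so in low probes they depend on the pseudocount and on libraries at 0 and can differ from the ratio of mean counts.

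Members and lists were chosen with earlier results of these data known. Values in every library were given for members called over the 18 libraries or by the study's limits in a cell line, and for up to 4 members per role called between cell lines at a mean of at least 100 normalized counts. The scripts were tested on simulated data. Positions are from GENCODE release 29 and promoters from RefSeq. Python 3.11.15 and matplotlib 3.10.9 drew the plots. The alternatives tried were other scalings, filters and pseudocounts, summed probes, voom weights, the replicate block, a single fit of all libraries, leaving out each replicate, and calls by adjusted p.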

Additional observations from a re-analysis of the deposited data

How the results depend on the processing

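No called result changed sign, but the pro-death median did. Of the 26 alternatives, 25 kept BAG1 called over the 18 libraries, and the replicate block gave 0 members (BAG1 Log2 FC 1.39, adjusted p = 0.062, limma) and 34 probes in all against 182. Whether replicate numbers pair the libraries was not settled. Same-numbered correlations ran from -0.647 to 0.352, negative in SUM149PT and positive in Hs578T, and differently numbered libraries were not compared. With that block, 1 member was called in SUM149PT (BAG1). BAG1 also kept its call in SUM149PT in all 15 alternatives, at 1.87 to 2.70, as did BMF in Hs578T in 15, and BNIP3L, APAF1 and the differences of CASP1_26966 to BT549 in 18 each. The BMF call in SUM149PT was lost in 6 of 14 alternatives and that of BID_26898 in 5 of 15. The CASP4 call was lost in 10 of 18. The pro-death median was -0.18 at a minimum of 50 and 0.10 to 0.32 with 1 replicate left out. The pro-survival median was 0.35 under library totals, 0.38 with no filter and 0.05 to 0.37 with 1 replicate left out. With adjusted calls, 0 members were called in Hs578T and 0 in SUM149PT. In BT549, no filter gave 1 member, and leaving out 1 replicate gave 0 to 5 (325 to 2169 over all probes, against 674). In Hs578T it gave 2 to 6 (158 to 634 over all, against 264), with 6 and 314 without siCtrl 2. In SUM149PT it gave 1 to 7 (501 to 2325 over all, against 963), with 1 without siCtrl 1 (501) or siASAP1 3 (573) and 5 without siASAP1 2 (1143), and library totals or a single fit of all 18 libraries gave 5. Between siCtrl libraries, Hs578T against BT549 gave 2 at a minimum of 50 and 2 (without BT549 siCtrl 3) to 8, SUM149PT against BT549 gave 3 to 9, and SUM149PT against Hs578T gave 2 (without Hs578T siCtrl 1 or 2) to 8. The cause of these moves was not tested. Over all probes, the count over the 18 libraries was 111 with no filter. Library totals shifted the median of all probes from 0.09 to 0.30 in SUM149PT, with 761 higher and 267 lower against 531 and 432, from 0.01 to 0.12 in Hs578T, with 196 higher and 83 lower against 127 and 137, and from 0.02 to 0.15 over the 18 libraries, with 122 higher and 80 lower against 71 and 111. The single fit called 1560 probes in SUM149PT against 963. Depth limits the low probes, such as BMF, BCL2 and CASP2.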
